A study of Mus musculus with 9 samples.

Results

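The cadherin superfamily genes named Cdh with a number or Pcdh were examined in Ink4a-/- mouse astrocytes that had been transfected with 1 of 3 plasmids. A gene was a member if its current mouse symbol, printed in a table or found from its gene identifier, began with Cdh and a number or with Pcdh. This rule took 55 genes of the 20076 in the authors' 2 deposited tables. RefSeq lists 93 genes of these names, and the other 38 are not analysed here. The members were 11 classical cadherins, 4 other numbered cadherins, 31 clustered protocadherins and 9 protocadherins outside the clusters. All groups carried the same deletion of Ink4a, a product of a locus that restrains the cell cycle, and were grown with high glucose and serum. The control group received pcDNA puro, the JICD1 group pcDNA HA-JICD1 puro and the NICD1 group pcDNA NICD puro, with 3 libraries per group and 9 in all. JICD1 stands for the cytoplasmic domain of Jagged1, a Notch ligand, here with an HA tag. NICD is the domain that Notch receptors release on activation and that drives transcription in the nucleus, and it is called NICD1 here. Whether the cells were pools or clones, and whether the libraries came from separate cultures, is not stated in these sources.

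Each deposited table gives, per gene, 1 log2 ratio of a transfected group over control and 1 score between 0 and 1 that its header calls Probability. Values per library were not analysed here, and the ratios therefore carry no replicate error, test or p-value, and the depth behind them is unknown. A member was called when its score reached 0.8, a limit chosen with results of these data known, and "higher" and "lower" give only the sign of a ratio. A change in the make-up of the culture and a change per cell cannot be told apart in such ratios. Some genes appeared to have 1 group at a common lowest value, here the floor, which was inferred from the pattern of ratios and scores. A ratio against the floor has no meaningful fold, so none is given. In the authors' deposited table Jag1 itself had a log2 ratio of -1.39 (score 0.759) in the JICD1 comparison, below control, and 1.36 (score 0.819) in the NICD1 comparison, above it. Whether the plasmid's transcript counts toward Jag1 is not stated, so the group is called JICD1-labelled and every direction for it rests on that label. Notch1 stood at 1.77 (score 0.815) with NICD1 and at 1.33 (score 0.735) with JICD1 in the authors' deposited tables, above control in both. Whether the NICD plasmid's transcript counts toward Notch1 is not stated either, so every direction for the NICD1 group likewise rests on its label.

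Cadherins are calcium-dependent adhesion proteins of the cell surface. Classical cadherins join like cells at adherens junctions, where their cytoplasmic tails bind p120-family and beta-catenins, and through alpha-catenin the actin cytoskeleton. Protocadherins share the extracellular cadherin repeats but not the catenin-binding tail. The clustered protocadherins lie in the Pcdha, Pcdhb and Pcdhg arrays on chromosome 18, where each cell uses a subset of alternative promoters and so gains a surface identity. They are best known from neurons, and astrocytes also express members of the Pcdhg array.

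Few members were called. In the JICD1-labelled comparison 4 of 52 members with a ratio were called, where 2.81% of all 18971 genes were. Those 4 were Pcdh7 and Cdh13, both higher (1.07% of all genes were called higher), and Pcdh1 and Pcdh19, both lower (1.74% of all genes). In the NICD1 comparison 2 of 54 members were called, Pcdh7 and Cdh11, both higher, and none was called lower. Of all 19287 genes 2.61% were called in that table, 1.64% higher and 0.97% lower. By size alone, 11 members had a log2 ratio of 1 or more and 18 of -1 or less with JICD1, where 14.5% and 14.4% of all genes did. The corresponding counts with NICD1 were 16 and 19 members, where 16.6% and 12.1% of all genes did. Most of the members with such ratios therefore had scores under 0.8. Just inside the limit lay Cdh13 with a score of 0.809 in the JICD1 table and Cdh11 with 0.820 in the NICD1 table, in the authors' deposited tables. Just outside it were Pcdh1 with 0.798 and Cdh15 with 0.792, both in the NICD1 comparison of the authors' deposited table.

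**Figure D1:**
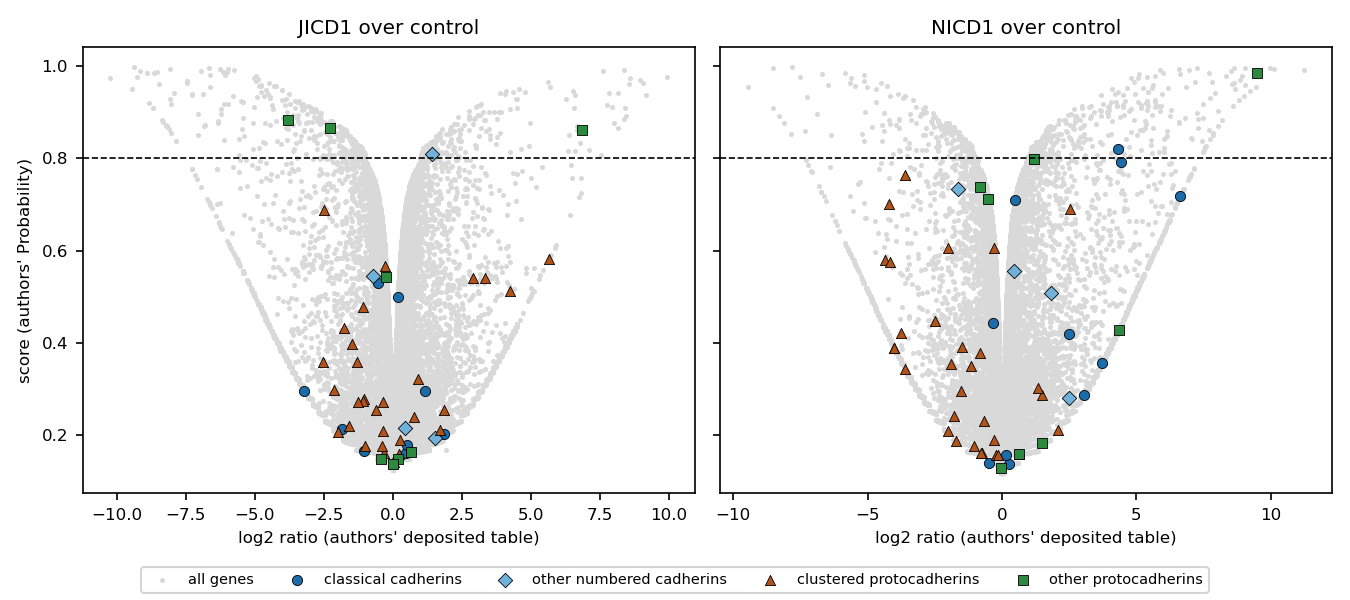
Log2 ratio over control (x axis) against the authors' score (y axis) for all genes (grey) and the members (symbols by class), with the JICD1-labelled comparison on the left and NICD1 on the right. The dashed line is the score limit of 0.8, with 4 members at or above it on the left and 2 on the right; the curved outer edges are formed by genes with 1 group inferred at the floor.

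Among the type I classical cadherins, which carry the main junctional adhesion of epithelia, neural tissue and muscle, N-cadherin was close to its control value. Cdh2, the N-cadherin gene and the classical cadherin typical of astrocytes, had log2 ratios of 0.19 (score 0.499) with JICD1 and 0.49 (score 0.711) with NICD1 in the authors' deposited tables. These are 1.14-fold and 1.40-fold higher than control. Among the 300 genes nearest to it in absolute ratio its score stood at percentile 83.9 and 96.3, so it had a high score for such small ratios. How far this percentile follows abundance is not known. The row of Cdh2 describes a transcript with a retained intron, which spans only part of the gene, at chromosome 18, 16771397 to 16808462 on GRCm38. Whether its ratio comes from that transcript alone is not stated.

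Cdh1, the E-cadherin gene of epithelia, had log2 ratios of -1.05 (score 0.165) and 0.25 (score 0.137) in the JICD1 and NICD1 comparisons of the authors' deposited tables. Among the 300 genes nearest in absolute ratio these scores stood at percentile 4.85 and 0.669, and the JICD1-labelled group was inferred at the floor. Cdh3, the P-cadherin gene, stood at 1.86 (score 0.201) and 3.74 (score 0.355) in the authors' deposited tables, and in both cases the control was inferred at the floor. The remaining type I member, Cdh15, encodes M-cadherin of muscle precursors and went opposite ways. In the authors' deposited tables its log2 ratios were -3.23 (score 0.296) with JICD1, where that group was inferred at the floor, and 4.42 (score 0.792) with NICD1. The NICD1 value is 21.5-fold higher than control. Since 1 group is at the floor, the size of the gap between the groups is not given. All 4 type I cadherins were above control with NICD1 and 2 of 4 with JICD1, where 48.5% and 54.5% of all genes were. None was called, where 2.61% and 2.81% of all genes were. With a group at the floor, Cdh3 could only lie above 0 in both comparisons, and Cdh1 and Cdh15 only below 0 with JICD1. Without members at the floor 3 remained with NICD1 and 1 with JICD1, so these counts do not set the constructs apart.

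Type II cadherins, which sort cell populations in mesenchyme and the developing nervous system, held the called classical cadherin. Cdh11, the OB-cadherin gene of mesenchymal cells, had log2 ratios of 1.18 (score 0.294) and 4.33 (score 0.820) with JICD1 and NICD1 in the authors' deposited tables, 2.26-fold and 20.2-fold higher than control. Cdh6, the K-cadherin gene, had a ratio only in the NICD1 comparison, at 6.63 (score 0.718) in the authors' deposited table, with the control inferred at the floor. Cdh18 likewise had only an NICD1 ratio, 3.06 (score 0.285) in the authors' deposited table, again with the control at the floor. VE-cadherin, encoded by Cdh5 and characteristic of endothelium, stood at -1.83 (score 0.212) and 2.50 (score 0.418) in the JICD1 and NICD1 comparisons of the authors' deposited tables. The remaining type II members showed small ratios. Cdh24 had -0.52 (score 0.530) and -0.32 (score 0.443), and Cdh7 and Cdh10 stayed between -0.48 and 0.51 with scores of 0.178 at most, in the authors' deposited tables. The row of Cdh10 also describes a transcript with a retained intron.

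Taken as a class, the 11 classical cadherins had a median log2 ratio of 2.50 with NICD1, where the median over all genes was -0.02. Of the 11, 9 lay above 0, where 48.5% of all genes did. The median rests on Cdh3, Cdh6 and Cdh18, whose control was inferred at the floor and whose ratios could only lie above 0. The count above 0 also includes them. Without these 3 members the median was 0.37 and 6 of 8 lay above 0. With JICD1 the median over 9 members was 0.19, against 0.05 over all genes, and 5 of 9 lay above 0, where 54.5% of all genes did.

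The other numbered cadherins have unusual structures. Cdh13 encodes T-cadherin, which lacks a cytoplasmic tail and is held in the membrane by a lipid anchor. In the authors' deposited tables its log2 ratios were 1.43 (score 0.809) with JICD1 and 0.43 (score 0.555) with NICD1, 2.69-fold and 1.35-fold higher than control. Its row describes a non-coding processed transcript at chromosome 8, 119277411 to 119314116 on GRCm38, inside the Cdh13 gene, so the called value may not stand for the coding transcript. Cdh26 had the largest ratio below 0 of the class, -1.64 (score 0.733) with NICD1, beside -0.71 (score 0.545) with JICD1 in the authors' deposited tables. Its row too describes a retained intron. Cdh17, the cadherin of intestinal and liver epithelia, stood at 0.46 (score 0.214) and 1.81 (score 0.508), and Cdh23, a tip-link protein of hair cells, at 1.51 (score 0.194) and 2.50 (score 0.279) in the authors' deposited tables.

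**Figure D2:**
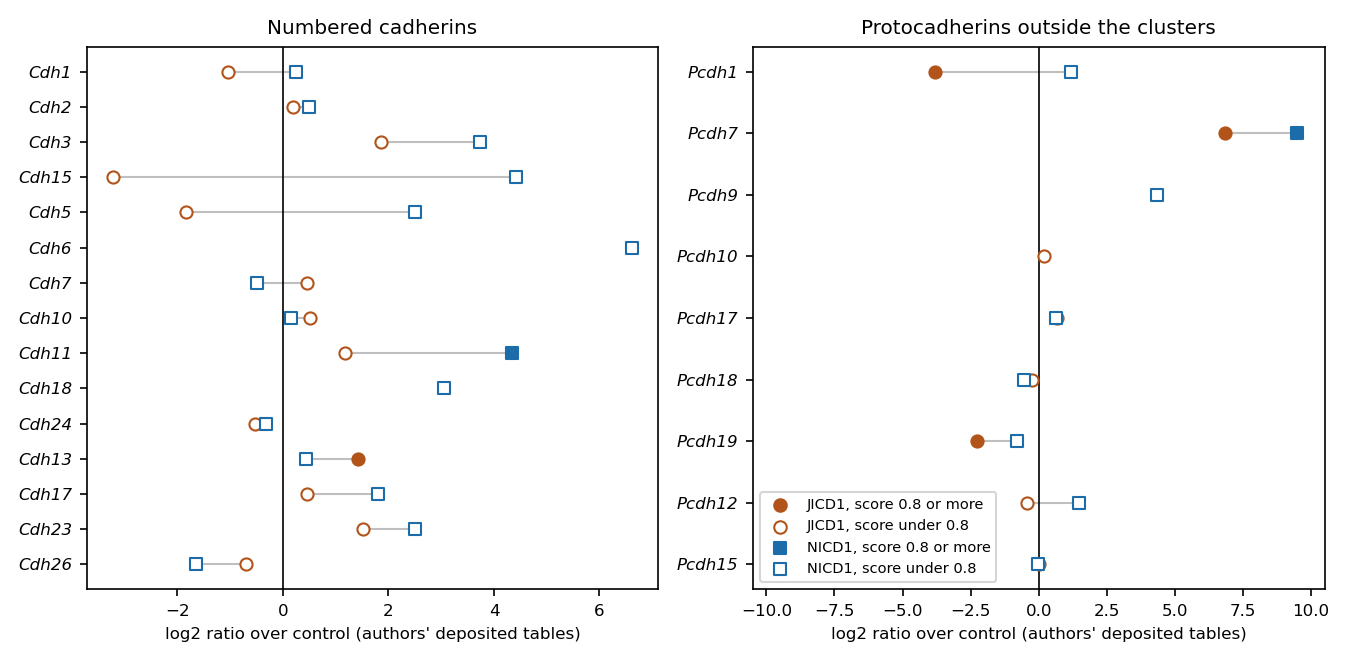
Log2 ratio over control (x axis) of each numbered cadherin (left) and each protocadherin outside the clusters (right), with circles for JICD1 and squares for NICD1, joined by a grey line where both exist and filled where the score reached 0.8. Pcdh7 has filled symbols in both comparisons, at 6.85 and 9.48, and the JICD1 end of the Cdh15 line is a group inferred at the floor.

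Protocadherins outside the clusters fall into the delta-1 group, the delta-2 group and single genes. The delta-1 gene Pcdh7 had the largest ratio of all members in both comparisons. In the authors' deposited tables it stood at 6.85 (score 0.861) with JICD1 and 9.48 (score 0.986) with NICD1. These correspond to 115-fold and 712-fold higher values than control. Pcdh7 lay off the line of genes with a control at the floor in the JICD1 comparison, so its control was taken to be above the floor, but the control level itself is not stated. Pcdh1, a delta-1 gene expressed in epithelia and brain, went opposite ways. Its log2 ratios in the authors' deposited tables were -3.80 (score 0.883) with JICD1, 13.9-fold lower than control, and 1.20 (score 0.798) with NICD1, 2.29-fold higher. It was the only called member with ratios on opposite sides of control. The third delta-1 gene, Pcdh9, had only an NICD1 ratio, 4.35 (score 0.426) in the authors' deposited table, with the control inferred at the floor.

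Delta-2 protocadherins, whose tails bind the WAVE actin regulatory complex, included 1 called gene. Pcdh19, known for its role in an X-linked epilepsy, had log2 ratios of -2.27 (score 0.866) with JICD1, 4.83-fold lower than control, and -0.81 (score 0.739) with NICD1 in the authors' deposited tables. Pcdh18 stood at -0.24 (score 0.541) and -0.53 (score 0.713) in the authors' deposited tables, both high scores for small ratios, at percentile 85.6 and 91.6 of the 300 genes nearest in ratio. Pcdh17 had 0.66 and 0.65 with scores of 0.161 and 0.159, and Pcdh10 had 0.19 (score 0.147) with JICD1 and no NICD1 ratio, in the authors' deposited tables. The single genes Pcdh12, of endothelium, and Pcdh15, of hair cells, had scores of 0.182 at most in the authors' deposited tables. Over the class the median log2 ratio was -0.12 with JICD1 and 0.92 with NICD1, each over 8 members. In the JICD1 comparison 3 of the 8 were called, where 2.81% of all genes were.

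Promoter sequences are shown for Pcdh7 and Pcdh19, which are called members on opposite sides of control. RefSeq promoter entries, 250 bases before to 50 after a start on GRCm38.p6, were matched for 15 of the 55 members with 18 entries, none of them from the clusters. The called members Cdh11, Cdh13 and Pcdh1 had none. The first is chr5:57717831-57718080 on the plus strand and the second chrX:133688994-133689243 on the minus strand, each the 250 bases before the start, 5′ to 3′. Neither holds either searched motif, so no letter is in capitals.
Pcdh7: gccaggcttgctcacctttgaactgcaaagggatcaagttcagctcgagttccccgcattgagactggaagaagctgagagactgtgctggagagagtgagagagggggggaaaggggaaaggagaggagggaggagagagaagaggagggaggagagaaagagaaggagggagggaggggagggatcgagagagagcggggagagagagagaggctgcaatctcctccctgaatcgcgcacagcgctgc
Pcdh19: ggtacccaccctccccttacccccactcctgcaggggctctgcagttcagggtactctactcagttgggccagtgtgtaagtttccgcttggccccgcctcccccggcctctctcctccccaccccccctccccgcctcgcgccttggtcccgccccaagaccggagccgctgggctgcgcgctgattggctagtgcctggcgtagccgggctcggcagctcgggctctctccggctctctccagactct
The GC content is 58.4% in the Pcdh7 stretch and 69.2% in that of Pcdh19.

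Motifs of factors tied to these genes and to Notch were searched on both strands. They were the E-box bound by Snail and Zeb repressors (CAGGTG or CACCTG) and the core of the site of RBPJ, the DNA-binding partner of NICD (TGGGAA or TTCCCA). The E-box was found in 3 of the 15 genes, Cdh7, Pcdh7 and Pcdh15, with 5 of the members' 18 entries (27.8%), and occurs in 20.2% of all 32851 entries. The RBPJ core was found in 5 of the 15 genes, Cdh6, Cdh7, Cdh24, Cdh26 and Pcdh10, with 7 of 18 entries (38.9%), and occurs in 25.6% of all entries. By gene, the E-box was in 20.0% of the 15 against 22.6% of all 27025 genes, and the RBPJ core in 33.3% against 28.3%. Several of the entries with a match are starts of the same gene, Cdh7. Windows around the match are shown for Pcdh7 (chr5:57718104-57718127, plus strand) and Cdh6 (chr15:13173626-13173647, minus strand), the members with the largest NICD1 ratios. Capitals mark the motif, which begins at base 33 in Pcdh7 and base 38 in Cdh6, counting the start as base 1. Both starts lie inside the RefSeq genes, which begin at 57716145 (Pcdh7) and 13176407 (Cdh6, minus strand).
Pcdh7 E-box: ggccgaatgCAGGTGagggaaggc
Cdh6 RBPJ core: gccgtaaccTTCCCAtcccgag
A match of letters is a description and shows no binding.

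Most ratios of the Pcdhb array lay below 0, though no gene of it was called. Its genes each encode a protocadherin in a single exon, and 21 of them had ratios. With NICD1 all 21 lay below 0, where 51.5% of all genes did, with a median log2 ratio of -1.99 and a range from -4.35 to -0.66. With JICD1 16 of 21 lay below 0, where 45.5% of all genes did, with a median of -1.01 and a range from -2.52 to 1.84. By size, 17 of 21 stood at -1 or less with NICD1 and 11 of 21 with JICD1, where 12.1% and 14.4% of all genes did. The highest scores were those of Pcdhb21, 0.763 with NICD1 and 0.688 with JICD1, in the authors' deposited tables. Both comparisons use the same control, so a high control value would lower both. Members of this array are related genes with similar stretches of sequence. How reads matching several of them were assigned is not stated, so the values of single Pcdhb genes are uncertain.

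Several Pcdhb genes stood out by size. Pcdhb21 had log2 ratios of -2.49 with JICD1 and -3.61 with NICD1 in the authors' deposited tables, 5.62-fold and 12.2-fold lower than control. Pcdhb16 was near control with JICD1, at -0.35 (score 0.272), and stood at -4.22 (score 0.701) with NICD1, 18.6-fold lower, in the authors' deposited tables. Pcdhb7 had the lowest NICD1 ratio, below that of Pcdhb16, -4.35 (score 0.578), beside -1.48 (score 0.397) with JICD1 in the authors' deposited tables. Pcdhb15 was next after these, at -4.16 (score 0.575) and -1.78 (score 0.432) in the NICD1 and JICD1 comparisons of the authors' deposited tables. The NICD1 group was inferred at the floor for Pcdhb2, Pcdhb4, Pcdhb8, Pcdhb9 and Pcdhb12, and the JICD1-labelled group for Pcdhb10. Such ratios could only lie below 0. Without those members the medians were -1.84 over 16 genes with NICD1 and -0.80 over 20 with JICD1. Of these, 16 of 16 and 15 of 20 lay below 0. No floor was called under an absolute ratio of 1, so some of these genes could still have a group there. With NICD1, Pcdhb3 and Pcdhb13 both stood at -0.76 with low scores (0.159) in the authors' deposited table.

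Along the array, in RefSeq gene order, the JICD1 exceptions were mostly at its start. Pcdhb2, Pcdhb3 and Pcdhb4, the first measured genes, had JICD1 ratios of 1.84, 1.71 and 0.76 with scores of 0.255 at most in the authors' deposited table. With NICD1 the same genes stood at -1.71, -0.76 and -4.02 in the authors' deposited table. The other JICD1 ratios above 0, those of Pcdhb13 (0.04) and Pcdhb17 (0.02) in the authors' deposited table, fall below 0 once the median over all genes is subtracted, which makes 18 of 21 below 0. Of the 21 genes, 19 had a lower ratio with NICD1 than with JICD1, all but Pcdhb10 and Pcdhb19, where 52.5% of all genes did. The median difference of JICD1 over NICD1 was 1.24 log2 units. The difference reached 1 in 12 of 21 genes, where it did in 10.6% of all 18182 genes with both ratios.

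**Figure D3:**
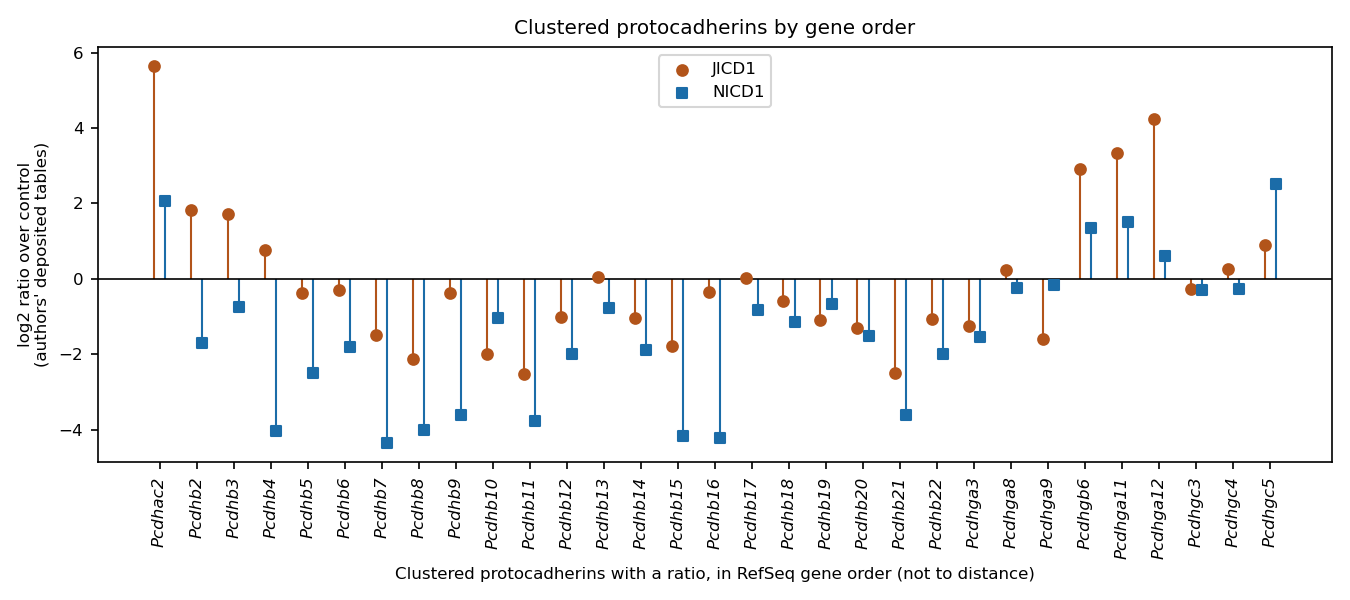
Log2 ratio over control (y axis) of the clustered protocadherins with a ratio, in RefSeq gene order along chromosome 18 and not to distance (x axis), with circles for JICD1 and squares for NICD1. All 21 Pcdhb squares lie below 0, between -4.35 and -0.66, and the tallest circles are Pcdhac2 at the left end and Pcdhga12 toward the right.

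Genes of the Pcdhg array, whose variable first exons are spliced to shared constant exons, lay on both sides of control. Of 9 measured members 6 were above control with JICD1 and 4 with NICD1, with median log2 ratios of 0.26 and -0.15. Of all genes 54.5% and 48.5% lay above 0, so these counts stand near the background. With JICD1 the large ratios above 0 belonged to 3 genes that are neighbours among the measured ones. In the authors' deposited tables Pcdhga12 stood at 4.25 (score 0.511) and 0.62 (score 0.159), Pcdhga11 at 3.33 (score 0.540) and 1.501 (score 0.286) and Pcdhgb6 at 2.91 (score 0.540) and 1.35 (score 0.302), for JICD1 and NICD1. The JICD1 values are 19.1-fold, 10.0-fold and 7.52-fold higher than control, with scores well under the limit. Pcdhga3, earlier in the array, had -1.25 (score 0.271) and -1.53 (score 0.294) in the authors' deposited tables. Pcdhga9, the measured gene directly before Pcdhgb6, had the lowest JICD1 ratio of the array. It stood at -1.60 (score 0.219) with JICD1 and -0.15 (score 0.156) with NICD1 in the authors' deposited tables.

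The C-type Pcdhg genes, which are expressed without the random choice of the others, differed among themselves. Pcdhgc3 was close to control in both comparisons, at -0.27 (score 0.566) and -0.30 (score 0.605) in the authors' deposited tables, with scores at percentile 86.0 and 88.0 of the 300 genes nearest in ratio. Pcdhgc4 was also within 0.3 of control, with scores of 0.189 in both of the authors' deposited tables. Pcdhgc5 stood at 0.91 (score 0.321) with JICD1 and 2.52 (score 0.690) with NICD1, the highest NICD1 ratio of the clusters, in the authors' deposited tables. The single Pcdha member, the C-type gene Pcdhac2, had ratios of 5.65 (score 0.581) and 2.07 (score 0.209) in the authors' deposited tables, and its control was inferred at the floor in both. Reads from the constant exons belong to every gene of an array, and how they were assigned is not stated.

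The class medians can be set side by side for the constructs, which share their control. With NICD1 the median log2 ratio was 2.50 for classical cadherins, 1.12 for other numbered cadherins, 0.92 for protocadherins outside the clusters and -1.50 for clustered protocadherins. With JICD1 the medians were 0.19, 0.94, -0.12 and -0.36 in that order. The order with NICD1 rests on members at the floor, without which the medians were 0.37, 1.12, 0.65 and -1.03. Over the 9 classical cadherins with both ratios the medians were 0.49 with NICD1 and 0.19 with JICD1. Setting the constructs against each other, 27 of 31 clustered protocadherins had a higher ratio with JICD1 than with NICD1, with a median difference of 1.12 log2 units. Without members at the floor in either table it was 21 of 24, with a median of 0.89. For classical cadherins 7 of 9 were lower with JICD1, with a median difference of -1.30, which is the difference of Cdh1, a gene with a group at the floor. Over the 6 without a floor 4 were lower, with a median of -0.25. The median difference over all 18182 genes was 0.04. Of those genes 52.5% had a higher ratio with JICD1 than with NICD1 and 43.7% a lower one. These are descriptions of deposited ratios, and no difference between classes was tested.

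Genes that work with cadherins were looked at as lists chosen by function. Beside the counts for these and the following lists stand the shares of all genes called. With JICD1 1.07% were called higher and 1.74% lower, and with NICD1 1.64% and 0.97%. Of 18 catenins and adherens junction partners 1 was called higher and 2 lower with JICD1, and 1 higher and none lower with NICD1. The called higher gene in both was Ctnnd2, encoding the neural p120-family catenin delta-2, at 9.92 (score 0.977) and 8.05 (score 0.904) in the authors' deposited tables. Called lower with JICD1 were Jup, the plakoglobin gene, at -1.28 (score 0.818), and Vcl, the vinculin gene, at -1.17 (score 0.823), beside -0.95 and 0.15 with NICD1 in the authors' deposited tables. Of the core catenins, Ctnnb1 (beta-catenin) stood at -0.07 and -0.15, Ctnna1 (alpha-catenin) at -0.30 and -0.26, and Ctnnd1 (p120-catenin) at -0.73 (score 0.755) and 0.20 (score 0.528) for JICD1 and NICD1 in the authors' deposited tables. The list medians were -0.16 and -0.10.

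**Figure D4:**
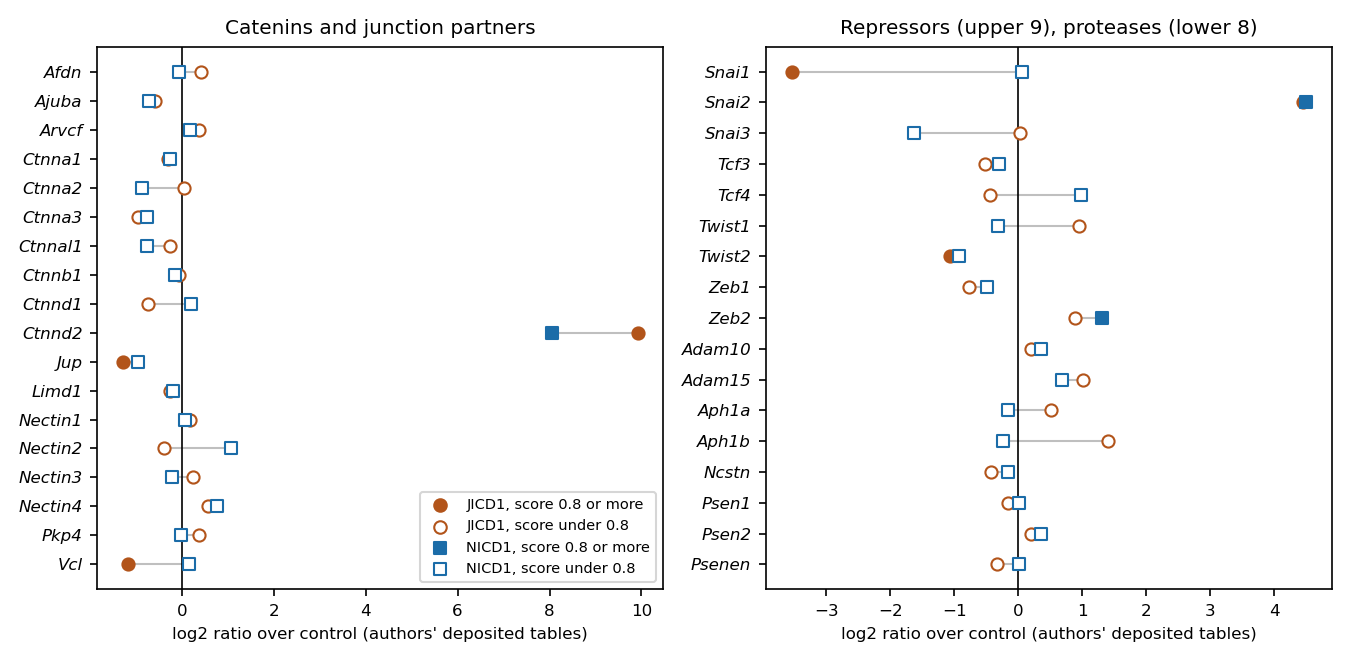
Log2 ratio over control (x axis) of catenins and junction partners (left) and of cadherin repressors with mesenchymal factors and cadherin proteases (right), with circles for JICD1 and squares for NICD1, filled where the score reached 0.8. Ctnnd2, at 9.92 and 8.05, stands apart from the other partners, and Snai1 with JICD1, at -3.55, is the lowest point plotted.

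Transcription factors that repress cadherin genes or mark mesenchymal cells were mixed. Of 9 measured, 1 was called higher and 2 lower with JICD1, and 2 higher and none lower with NICD1. Snai2 was higher in both, at 4.45 (score 0.929) and 4.50 (score 0.938) in the authors' deposited tables. Snai1 stood at -3.55 (score 0.925) with JICD1 and 0.05 (score 0.243) with NICD1, and Twist2 at -1.07 (score 0.810) and -0.92 (score 0.786), in the authors' deposited tables. Zeb2 had 0.89 (score 0.710) and 1.30 (score 0.805), while Zeb1 had -0.77 and -0.50 and Twist1 had 0.96 and -0.32, for JICD1 and NICD1 in the authors' deposited tables. Among 8 genes of cadherin-cleaving proteases, ADAM10 and the gamma-secretase subunits among them, none was called in either comparison.

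Regulators of clustered protocadherin promoter choice, including CTCF, cohesin and DNA methyltransferases, were measured for 16 genes. Of these, 10 with JICD1 and 12 with NICD1 lay within 0.5 of 0, where 52.1% and 54% of all genes did, and 1 was called. That was Stag2, a cohesin subunit gene, at -3.20 (score 0.911) with JICD1 and 0.23 (score 0.532) with NICD1 in the authors' deposited tables. Ctcf stood at 0.11 and -0.36, the cohesin gene Rad21 at -0.41 and -0.15 and Smchd1 at 0.15 and -0.12 for JICD1 and NICD1 in the authors' deposited tables. Of 14 measured genes for cytoplasmic partners of protocadherins, 1 was called, the kinase gene Ptk2b at -5.46 (score 0.865) with JICD1, beside 0.95 (score 0.684) with NICD1 in the authors' deposited tables. No other cadherin superfamily gene was called among 15 with a JICD1 and 17 with an NICD1 ratio.

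Markers of cell types were read beside these results, and their part in them was not tested. No level is given per group, so the label of the cells as astrocytes could be checked only by ratios. Of the 10 astrocyte markers with an NICD1 ratio, 7 lay below 0, where 51.5% of all genes did, and none of these had a group inferred at the floor. Among them were Clu at -2.30 (score 0.875) and Sox9 at -1.64 (score 0.851) in the authors' deposited table. The other 3 lay above 0, and of these Slc1a2 and Fabp7 had a control inferred at the floor. Astrocyte markers had medians of -0.84 over 9 genes with JICD1 and -0.70 over 10 with NICD1, and 1 and 2 of them were called lower. Fibroblast and pericyte markers, which could share a source with Cdh11, were below 0 in 6 of 6 with JICD1 and 5 of 7 with NICD1, with medians of -2.59 and -1.86, and 4 and 2 of them were called lower. Endothelial markers, which share a cell type with Cdh5, had medians of 1.19 and 0.29 over 5 genes, with none called. Epithelial markers, which share one with Cdh1, had medians of -2.03 with JICD1 and -0.67 with NICD1 over the 4 genes with both ratios, with none called. Over all 7 epithelial markers with an NICD1 ratio the median was 0.76, with 4 above 0 and 3 below, so its sign depends on the genes included. Neuron markers, which could share a source with the protocadherins, were above 0 in 4 of 6 with JICD1 and 4 of 5 with NICD1, with medians of 0.29 and 2.76. Of these, 1 was called higher and 1 lower with JICD1, and 3 higher and 1 lower with NICD1. Microglia markers had medians of -1.70 and 0.88 over 6 genes, with 1 called lower with JICD1, and oligodendrocyte markers 0.31 and 0.40 over 4.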

How the data were processed

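RNA-seq of 9 libraries was reduced by the authors to 2 deposited tables, each with a log2 ratio of a transfected group over control and a score named Probability per gene, per the file headers. The submitters' processing notes list Bowtie2, BWA and mm9, while the tables' descriptions of unnamed genes give positions on GRCm38. How reads were counted, libraries combined or the score made is not stated in these sources, and the tables held 0 unused numeric columns. The labels' protocols also name an enrichment of methylated DNA, for which no values were analysed here. The count or limma test foreseen for values per library could not be run, so the ratios and scores are used as deposited.

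Symbols came from the tables and, by identifier, from RefSeq (GRCm38.p6) and a table of Ensembl gene names, which together named 18681 of 18971 and 18998 of 19287 genes. For 13 of the 55 members the symbol came from the identifier. Where 2 tables gave the same negative ratio within 1e-06 (694 genes; 1 gene had the same positive ratio), both transfected groups were taken to be at a floor. A ratio of at least 1 in absolute size within 0.002 of those genes' score curve (0.01 above a log2 of 6) was taken to have a group there. Such a call was dropped where the other table put a group below the floor, which happened for 10 genes, among them 1 member, while 3791 kept one. The curve ends at 9.45. The floor step was tested on data simulated with a fixed floor and a score built from ranks. Since the making of the authors' score is not stated, that test cannot show whether the floor calls here are right.

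The members and lists were chosen with earlier results of these data known. Described in full are called members, 15 set genes where measured (Cdh1, Cdh2, Cdh3, Cdh4, Cdh5, Cdh6, Cdh11, Cdh13, Cdh15, Pcdh1, Pcdh7, Pcdh10, Pcdh17, Pcdh18 and Pcdh19) and the 3 highest scores per class and table; other members named were chosen after their values were seen, to account for each class. Alternatives changed the score limit, centring, floor members and naming. Python 3.11.15, pandas 2.3.3, numpy 2.4.6 and matplotlib 3.10.9 were used.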

Additional observations from a re-analysis of the deposited data

How the results depend on the processing

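The counts of called members and the class medians depended on several choices, while subtracting each table's median (0.05 and -0.02) turned the sign of no class median. Of 50 alternatives for counts and medians, 29 left the value within 1.5 times (counts) or 0.1 log2 units (medians, which have no replicate spread to judge by), 19 moved it and 2 turned its sign. For single named genes only the subtraction of the table's median was run, a shift too small to test them. In the JICD1 comparison the 4 called members became 0 at a score of 0.9, 29 by an absolute log2 ratio of 1 alone and 2 with printed symbols only. In the NICD1 comparison the 2 became 11 at a score of 0.7, 1 at 0.9 and 35 by the ratio alone. With printed symbols only, the JICD1 median of classical cadherins turned from 0.19 to -0.52 and that of protocadherins outside the clusters from -0.12 to 0.0075, since fewer members remain. The NICD1 medians of these classes were then 4.04 and 0.31, and the other numbered cadherins have no printed symbol, so no value was possible. Without members at the floor the classical medians were 0.33 (JICD1) and 0.37 (NICD1), the NICD1 medians of clustered and other protocadherins -1.03 and 0.65, and those of Pcdhb -0.80 (JICD1) and -1.84 (NICD1), while JICD1 over NICD1 was -0.25 for classical cadherins and 0.89 for clustered protocadherins. With members of both tables only, the NICD1 medians of classical cadherins and other protocadherins were 0.49 and 0.65, and the JICD1 median of the latter -0.24. The alternatives for Pcdhb, for JICD1 over NICD1 and for the count of classical cadherins above 0 were chosen after seeing the data. No paired analysis was possible because each gene has a single ratio per comparison with nothing for separate libraries, and for the same reason no library could be left out. Depth is unknown and sets no limit that can be stated here.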

Other observations

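Genes next to the protocadherin clusters on chromosome 18 were read after the Pcdhb values had been seen. The 10 nearest measured protein-coding genes on each side that are no members, and 2 that lie within the clusters, Slc25a2 and Taf7, had ratios in both tables. With NICD1 12 of these 22 neighbours lay below 0, where 51.5% of all genes did. Their median log2 ratio was -0.03 with a range from -0.47 to 1.19, where the 21 Pcdhb genes ranged from -4.35 to -0.66. With JICD1 9 of 22 lay below 0, where 45.5% of all genes did, with a median of 0.05 and a range from -1.20 to 1.05. None of the neighbours had a score of 0.8 or more in either comparison, where 2.81% (JICD1) and 2.61% (NICD1) of all genes did. No Pcdhb gene had such a score either. At -1 or less stood 2 neighbours with JICD1 and none with NICD1, where 14.4% and 12.1% of all genes did. Whether neighbours and Pcdhb genes differ was not tested. Taf7, a transcription factor TFIID subunit gene between the Pcdhb and Pcdhg arrays, had ratios of 0.39 and -0.21 in the authors' deposited tables.

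Other cadherin superfamily genes had several large ratios with scores under 0.8, among them those of 5 genes. Celsr1, a planar polarity gene, stood at 0.26 (score 0.147) with JICD1 and 6.20 (score 0.787) with NICD1 in the authors' deposited tables. Cdhr1, a photoreceptor cadherin gene, had -5.30 (score 0.798) and -1.74 (score 0.643), and Clstn3, a synaptic calsyntenin gene, -0.41 (score 0.226) and -3.60 (score 0.529), for JICD1 and NICD1 in the authors' deposited tables. Fat2, a gene of the Fat cadherins, stood at -3.75 (score 0.474) and -0.68 (score 0.261), and Celsr2 at 0.05 (score 0.141) and 3.98 (score 0.387), the latter with the control inferred at the floor, in the authors' deposited tables.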
